A study of Mus musculus with 9 samples.

Results

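The barcodes described here are the most complex hepatocyte barcodes of a Drop-seq study of mouse liver after injection of an adeno-associated virus (AAV) vector. In Drop-seq each cell shares a droplet with a bead whose primers carry a cell barcode and unique molecular identifiers (UMIs), so a barcode stands for a droplet that should hold 1 cell. Members were chosen by measured values: a barcode was taken when it had at least 1000 detected genes, at least 10 UMIs of Alb, at most 20% of its UMIs from mitochondrially encoded transcripts, and 0 UMIs over 12 genes of other liver cells (Ptprb, Kdr, Stab2, Clec4g, Clec4f, Cd5l, C1qa, C1qb, Cd3d, Trbc2, Dcn and Cd79a). The rule was met by 1352 of 48000 barcodes. Livers came from 9 male C57BL/6 mice aged 8 weeks, 3 per group, 1 library per liver. Mice 2, 5 and 8 had received AAVrh.10Null, mice 3, 6 and 9 AAVrh.10mCherry, and mice 1, 4 and 7 PBS, all into a vein. AAVrh.10 is an AAV serotype that carries genes to the liver, and mCherry is a red fluorescent protein that mice do not have. Neither the vector dose, nor the promoter of the transgene, nor how long after injection the livers were taken is stated in the sources used here.

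Hepatocytes make up most of the liver's mass. They secrete albumin and most other plasma proteins, clear ammonia through the urea cycle, build lipoproteins and bile acids, and break down drugs with cytochrome P450 enzymes. Many of these tasks are divided along the lobule, with periportal hepatocytes near the incoming blood and pericentral hepatocytes near the draining vein. In mice the pulsed release of growth hormone in males also sets sex-biased programmes, among them the major urinary proteins of males.

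Members were spread unevenly over the livers. There were 30, 21 and 97 in AAVrh.10Null mice 2, 5 and 8, 138, 69 and 242 in AAVrh.10mCherry mice 3, 6 and 9, and 701, 51 and 3 in PBS mice 1, 4 and 7. Mouse 1 alone held more than all other mice together, and its members were 13.5% of its barcodes, against 0.0833% to 3.78% in the other mice. Mouse 7 had under 20 members and enters no comparison, which leaves n = 3, 3 and 2 mice.

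Of the 1872 barcodes with at least 1000 genes, 1871 also passed the Alb minimum and 1816 the mitochondrial limit. The 12 genes of other cells then removed 464, of which 264 had a single UMI of them. Dcn, a matrix gene of stellate cells and fibroblasts, was seen in 169 of the removed barcodes, Ptprb in 106, and Clec4g, a gene of sinusoidal endothelium, in 99. Fewer than 50 genes above the gene threshold lay 295 members, and up to 50 genes below it lay 461 barcodes. Their median depths over mice were 1995 and 1946 UMIs.

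The median member held 2469.5 (mouse 3) to 4018 (mouse 8) UMIs, and the median number of genes ran from 1109 (mouse 1) to 1402 (mouse 8). The other hepatocyte barcodes, which pass the Alb minimum and the mitochondrial limit but are not members, numbered 40492, with medians of 271 to 1901.5 UMIs. They were held to neither the gene minimum nor the 12 genes of other cells. Dcn averaged 96.3 CPM and Ptprb 52.0 CPM in them, so some may hold other cells, and ratios to them are not contrasts within hepatocytes alone. Libraries held 1083091 (mouse 7) to 11220152 (mouse 1) UMIs. Barcodes that end in an undetermined base were 0.0972% and 0.278% of all barcodes in mice 2 and 8, 4.83% in mouse 7 and 25.4% to 27.5% in the other 6. Mice 2 and 8 are both AAVrh.10Null, while AAVrh.10Null mouse 5 had 27.5%. What made this difference was not tested. In mice 2 and 8 it cannot be told apart from the injection, which bears on the contrasts with AAVrh.10Null. Of 91 barcode sequences found in more than 1 library, 7 were members. Y-linked Ddx3y gave 12 to 170 UMIs in the members of each of the 8 mice used, and the X-inactivation transcript Xist 0, as their male label calls for.

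**Figure D1:**
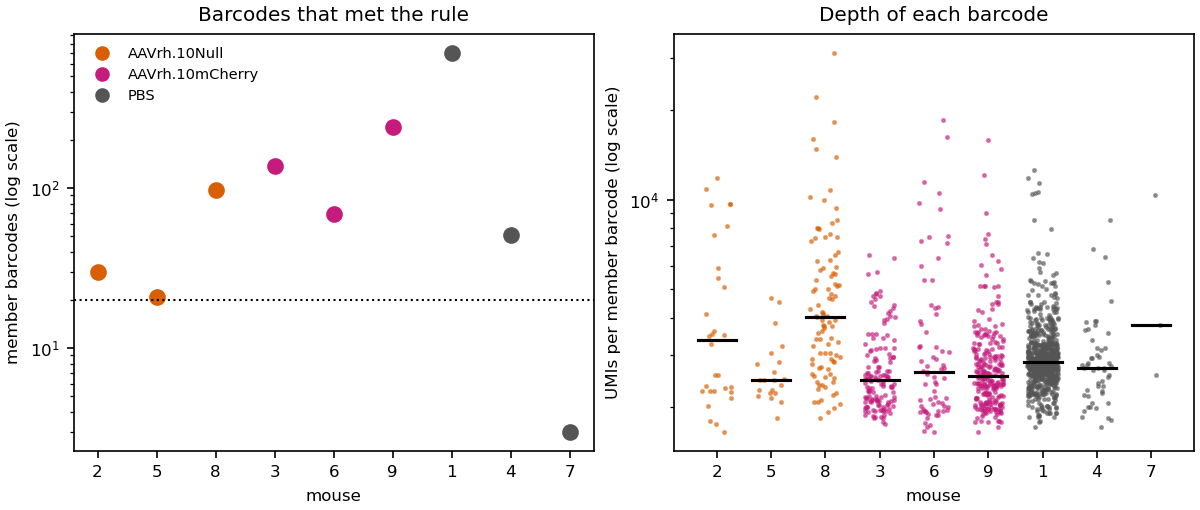
Members per mouse (left, log scale, dotted line at the minimum of 20) and UMIs of each member barcode (right, log scale, bars at the medians), with vector groups left of PBS. Mouse 1 has 701 members and mouse 7 has 3, while median depths lie between 2469.5 and 4018 UMIs.

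The most abundant transcripts of the members were mostly those typical of hepatocytes. Seeing a marker does not by itself identify a hepatocyte here, since barcodes of other cells held these transcripts too, as given below. Of the 6 hepatocyte markers, Alb, Apoa1, Ttr and Fabp1 were seen in 100% of members, Serpina3k, a serine protease inhibitor of plasma, in 99.9% and Cps1, the first enzyme of the urea cycle, in 88.0%. Alb, which the rule used, led with 42911 ± 11479 CPM, its UMIs per 1000000 UMIs of all members of a mouse (mean ± SD, n = 8 mice). It was followed by the mitochondrial ribosomal RNA mt-Rnr2 at 32112 ± 14360 CPM and by Mup3, a major urinary protein, at 20886 ± 6952 CPM. Apoa2 (20122 ± 2913 CPM), Apoe (19081 ± 3139 CPM) and Apoa1 (15538 ± 1552 CPM) are lipoprotein components, and Ttr, the thyroxine and retinol carrier, stood at 17540 ± 3362 CPM. The nuclear RNA Malat1 ranked seventh at 15642 ± 4781 CPM, and Fabp1, a fatty acid carrier of the cytosol, ninth at 11851 ± 3555 CPM. The 20 highest genes took 25.5% (mouse 9) to 32.1% (mouse 8) of the UMIs.

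Gene levels of 2 mice correlated with a median r of 0.878 (mouse 5) to 0.939 (mouse 1) over log2 levels across genes, as a description. Mouse 6 departed most among the abundant genes. Its Mup3 was 4935 CPM, its Mup20 1206 CPM, its Fabp1 4181 CPM and its Serpina1e, an alpha-1-antitrypsin gene, 367 CPM, each the lowest of the 8 mice. The next lowest values were 19042 CPM for Mup3, 3846 CPM for Mup20 and 7096 CPM for Serpina1e, all in mouse 9, which also had received AAVrh.10mCherry, and 10091 CPM for Fabp1 in PBS mouse 4.

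**Figure D2:**
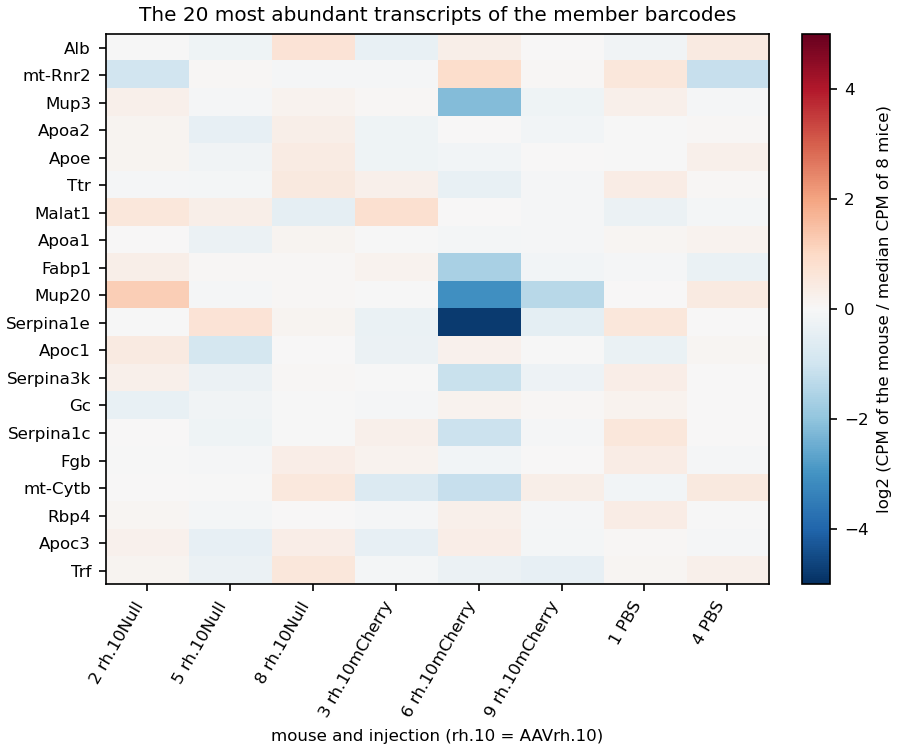
Levels of the 20 most abundant transcripts of the members, each as log2 of its CPM in a mouse over the median of 8 mice (colour), with genes in rows by rank and mice in columns by injection. Mouse 6 is the lowest in Mup3, Mup20, Fabp1 and Serpina1e.

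Transcripts of most other cell types were few in the members. For endothelial, macrophage, T, B and stellate cells this is no independent check. The rule removed every barcode with a UMI of 12 genes of these cells, which also lowers their other markers. It held no cholangiocyte gene. Over 12 endothelial markers that the rule did not use, the summed level was 0 to 13.5 CPM in AAVrh.10Null, 14.99 to 20.97 CPM in AAVrh.10mCherry and 6.44 to 39.0 CPM in PBS mice. Stellate and fibroblast markers (8 genes) together reached 9.62 CPM in AAVrh.10Null, 29.97 CPM in AAVrh.10mCherry and 27.4 CPM in PBS mice, with Col1a1 at 0 in every mouse. The 10 Kupffer cell and macrophage markers gave 3.85 to 22.1 CPM in AAVrh.10Null, 15.5 to 303 CPM in AAVrh.10mCherry and 40.9 to 51.6 CPM in PBS mice, with Timd4 at 0. The high value was mouse 6, where lysozyme Lyz2 alone gave 266 CPM. The 9 T and NK cell markers reached 129 CPM in mouse 4 and at most 19.7 CPM elsewhere, and Cd3e and Gzma were at 0. The 6 cholangiocyte markers ranged from 3.85 CPM in mouse 8 to 824 CPM in mouse 6, with Spp1 (osteopontin) as the leading gene, at 712 CPM in mouse 6 and 1.92 CPM in mouse 8, and Krt7 at 0. Neutrophil markers were at 0 throughout, B and plasma cell markers reached 88.3 CPM in mouse 2, monocyte and dendritic markers 18.7 CPM in mouse 6, and red cell markers ran from 22.5 to 155 CPM.

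Hepatocyte RNA outside hepatocytes was looked for in barcodes with at least 5 UMIs over the 12 genes of other cells. Such barcodes may hold free RNA or a hepatocyte as a second cell, and these cannot be told apart here. There were 12 to 136 such barcodes per mouse with medians of 359 to 2115 UMIs. Alb in them stood at 28.4% (mouse 8) to 74.6% (mouse 1) of the member level of the same mouse. Other hepatocyte markers stood higher, with Apoa1 at 37.2% (mouse 8) to 92.02% (mouse 3) of the member level. Ttr ran from 40.01% to 91.01% and Fabp1 from 47.1% to 89.5%, with the ends in the same mice. Alb, which the rule used, was the lowest of these markers in every mouse except mouse 5, where Fabp1 was lower (62.4%, against 66.5% for Alb).

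Compared with the other hepatocyte barcodes of the same mice, members took larger shares of hepatocyte transcription factor, gluconeogenesis and heat shock transcripts and smaller shares of pericentral and cytochrome P450 transcripts in 8 of 8 mice. These are descriptions with no test, since the rule selects on depth and purity. Neat1, a nuclear RNA, averaged 438 CPM in members and 171 CPM in the other barcodes, higher in 8 of 8 mice (mean log2 ratio 1.18, with 50 CPM added to both levels). Malat1 averaged 15642 CPM in members and 9265 CPM in the others, higher in 6 of 8 mice, with log2 ratios of -0.94 to 2.43. Spp1 averaged 207 CPM and 17.4 CPM and was also higher in 8 of 8, with a lowest log2 ratio of 0.02. Most of its level came from mice 6 (712 CPM), 5 (402 CPM) and 4 (258 CPM). In mouse 8 the members held 1 UMI of it (1.92 CPM).

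Further genes with high ratios were Mlxipl, the carbohydrate-responsive transcription factor, at 541 CPM in members and 284 CPM in the others, and the immediate early gene Jun at 1108 CPM and 527 CPM, both higher in 7 of 8 mice. Hepatocyte transcription factors and nuclear receptors as a list took 1.37 times the share of UMIs that they took in the other barcodes (median over mice, range 1.01 to 1.71). Genes of gluconeogenesis, glycolysis and fasting took 1.23 times (1.07 to 1.41) and heat shock genes 1.146 times (1.03 to 1.24). These 3 lists were higher in 8 of 8 mice.

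The haemoglobin transcript Hbb-bs averaged 10.5 CPM in members and 470 CPM in the other barcodes, the lowest ratio among the genes compared (mean log2 ratio -2.38). Dcn and Ptprb were at 0 in members by the rule. Cyp2e1, the pericentral ethanol-oxidising P450, averaged 1761 CPM in members and 2834 CPM in the others, and Cyp2c29, another pericentral P450, 1243 CPM and 2047 CPM, both lower in 8 of 8 mice. The whole pericentral list took 0.732 times its share in the other barcodes (0.619 to 0.904, lower in 8 of 8), and the periportal list 1.04 times (0.883 to 1.38, higher in 4 of 8). The periportal list here includes Alb, which the rule used. Alb averaged 42911 CPM in members and 39219 CPM in the others, and was itself higher in 4 of 8 mice. No such ratio was taken without Alb. Of the other hepatocyte markers, Apoa1 and Fabp1 were higher in members in 2 of 8 mice, Ttr in 1, Serpina3k in 3 and Cps1 in 5. The mitochondrial rRNA mt-Rnr2 was also lower in 8 of 8 mice, and the rule limits mitochondrial UMIs in both sets.

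To see how members varied among themselves, each member was thinned to 2000 UMIs, leaving out those with fewer, and the variance over the mean was taken within each mouse for 319 genes with a mean of at least 0.5 UMIs in every mouse. Genes were ordered by their median rank over mice. Over all 319 the median ratio was 1.25, where counting alone gives about 1. For the same relative variation the ratio grows with a gene's level, so this ranking favours abundant genes. Thinned means of mt-Rnr2, for example, ran from 26.8 to 110 UMIs over mice, against the minimum of 0.5 UMIs. No ranking that allows for level was made. By that rank Malat1 was first with a median ratio of 47.5 (32.1 to 131 over mice), then mt-Rnr2 with 30.1 (19.9 to 50.7) and Gm42418, which is counted with the nuclear RNAs, with 7.38. Mup20 (8.00), Mup3 (5.51), Fabp1 (5.88), Apoe (5.88) and Serpina1e (4.70) were the leading genes of secreted or lipid-binding proteins. Of the 15 genes with the highest ranks, 4 were mitochondrially encoded, 3 were apolipoproteins (Apoe, Apoa2 and Apoa1), 2 were major urinary proteins, 1 was pericentral (Car3, a carbonic anhydrase) and 1 periportal (Trf, transferrin).

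Zonation was visible in most livers. The log2 ratio of pericentral to periportal UMIs in thinned members, with 1 added to each and Alb left out, had medians of -0.68, -0.27 and -1.71 in AAVrh.10Null mice 2, 5 and 8, -0.56, -1.48 and -0.29 in AAVrh.10mCherry mice 3, 6 and 9, and -0.30 and -0.84 in PBS mice 1 and 4. The groups overlapped, and mice 8 and 6 had the lowest medians. In mouse 8 Cyp2e1 was the lowest of the 8 mice (217 CPM) and periportal Cyp2f2 among the higher (1635 CPM). In mouse 6 Cyp2f2 was the lowest (573 CPM), Cyp2e1 stood at 1345 CPM, and Car3 of the pericentral list at 1435 CPM, against 4621 to 8019 CPM in the other 7, so its low ratio did not go with a high Cyp2f2. Between the 10th and 90th percentile the ratio spanned 0.96 in mouse 1 and 1.42 to 2.98 in the others, so the liver with most members also had the narrowest range.

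Cyp2e1 and periportal Cyp2f2 were opposed among the members of 7 of the 8 mice, as a description. Spearman's rho was -0.62, -0.25 and -0.13 in mice 2, 5 and 8, -0.16, -0.38 and -0.29 in mice 3, 6 and 9, and 0.01 and -0.35 in mice 1 and 4, over 20 to 680 thinned members that share their library. At least 1 UMI of Glul, glutamine synthetase of the innermost pericentral layer, was seen in 4.26% (mouse 8) to 23.1% (mouse 1) of thinned members.

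**Figure D3:**
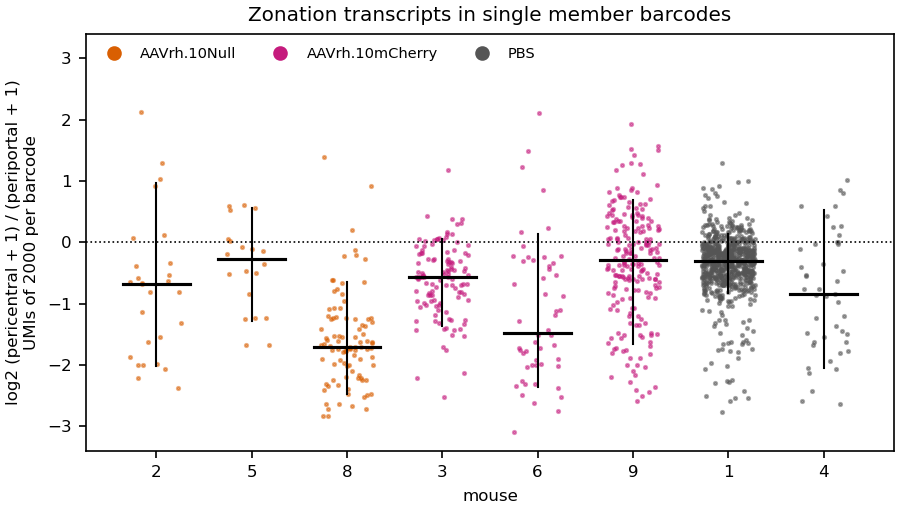
Log2 ratio of pericentral to periportal UMIs in each member thinned to 2000 UMIs, by mouse, with the median (horizontal bar) and the 10th to 90th percentile (vertical line). The groups overlap, mouse 8 has the lowest median (-1.71) and mouse 1 the narrowest range.

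mCherry marked the members of the mCherry-carrying vector. It stood at 7865, 5238 and 1876 CPM in AAVrh.10mCherry mice 3, 6 and 9, at 0, 34.98 and 0 CPM in AAVrh.10Null mice 2, 5 and 8, and at 19.96 and 0 CPM in PBS mice 1 and 4. All 3 AAVrh.10mCherry mice lay far above the others, with intervals that did not overlap each other. The mCherry feature was listed for 6 of the 9 mice and read as 0 for the rest. Mouse 1 had 43 mCherry UMIs in 35 members, 9 of them in 1 barcode, and mouse 5 had 2.

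Among AAVrh.10mCherry members, 100%, 98.6% and 95.5% held at least 1 mCherry UMI in mice 3, 6 and 9, against 4.99% in PBS mouse 1. The barcodes of other cell types described above held one in 98.6%, 82.4% and 68.4% of cases, at medians of 1544, 844.5 and 1327 UMIs, and their mCherry level was 66.2%, 49.9% and 59.6% of that in members. The share of members with a UMI is therefore not a rate of transduction, and how much of the mCherry in single barcodes was free RNA or came from a second cell was not tested. Within mice, mCherry of single members, without thinning, spanned 3.24 times from the 10th to the 90th percentile in mouse 3. It spanned 5.19 times in mouse 6 and 6.98 times in mouse 9. The median levels were 7286, 5188 and 1595 CPM, so counting error weighs most in mouse 9. How much of these spans was counting error was not tested. In members mCherry was at 0.981, 0.734 and 1.04 times its level in the other hepatocyte barcodes of mice 3, 6 and 9.

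Igkv3-12, which encodes a variable stretch of antibody kappa chains (chr6:70518250-70518849, plus strand, mm10), was seen in the AAVrh.10Null members alone. It stood at 140, 192 and 196 CPM in AAVrh.10Null mice 2, 5 and 8, with exact 95% Poisson intervals of 84.2 to 218, 96.0 to 344 and 160 to 238 CPM. It had 0 UMIs in the members of AAVrh.10mCherry mice 3, 6 and 9 and of PBS mice 1 and 4. Such intervals cover counting error only. B and plasma cells use this segment; whether these reads came from it or from vector sequence that aligns there was not tested. Igkc, the constant part of the same chain, stood at 80.95, 0 and 0 CPM in AAVrh.10Null mice 2, 5 and 8, and all 6 B and plasma cell markers together at 88.3, 0 and 0 CPM. The feature was listed for 4 of the 9 mice, the other being mouse 6, whose other hepatocyte barcodes had 3.43 CPM. At least 1 UMI was seen in 26.7%, 52.4% and 37.1% of the members of mice 2, 5 and 8, and the level in the other hepatocyte barcodes was close, at 126, 249 and 239 CPM.

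**Figure D4:**
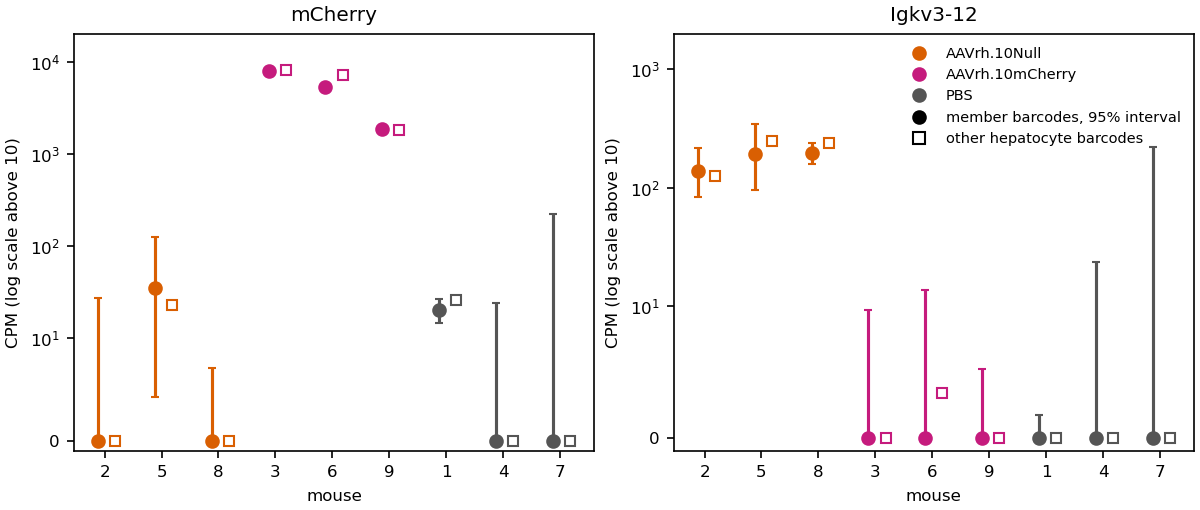
mCherry (left) and Igkv3-12 (right) in CPM by mouse, on an axis that is logarithmic above 10 CPM, with filled points for members with exact 95% Poisson intervals and open squares for the other hepatocyte barcodes. mCherry lies at 1876 CPM or above in AAVrh.10mCherry mice, and Igkv3-12 at 140 to 196 CPM in members of AAVrh.10Null mice.

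Group comparisons used the UMIs of all members summed per mouse, with the mouse as replicate, over 4838 genes. The first comparison asks what AAVrh.10Null did relative to PBS. Igkv3-12 alone passed edgeR's quasi-likelihood test with Benjamini-Hochberg adjustment at 0.05 (log2 fold change 9.63, SE 0.74, adjusted p = 2.76e-05, higher in 3 of 3 mice), which is 0.0207% of the genes tested. As a bound against 3 UMIs over the PBS members, it was at least 142.5-fold higher in AAVrh.10Null. Mouse 1 held 2153937 of the 2309122 PBS member UMIs, and without it the bound was 9.58-fold. The adjusted p missed 0.05 without AAVrh.10Null mouse 8 (log2 9.42, adjusted p = 0.113) and with limma-voom (log2 7.71, adjusted p = 0.123). Without PBS mouse 1, which leaves 1 PBS mouse, the log2 fold change was 8.91. At an unadjusted p under 0.05, 191 genes (3.95%) differed.

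Among lists with at least 15 tested genes, the pericentral one had the median furthest from 0 in AAVrh.10Null minus PBS. Of 32 listed genes 25 were tested, and none passed the test. Log2 fold changes of 24 of these 25 were below 0 with a median of -0.86, beside a median of -0.01 and 2448 of 4838 below 0 over all genes. In 7 of them every AAVrh.10Null mouse was lower than both PBS mice, where 8.6% of all genes were. Cyp2a5, the coumarin hydroxylase, had 29.4, 17.5 and 11.5 CPM in AAVrh.10Null mice 2, 5 and 8, against 76.6 and 58.0 CPM in PBS mice 1 and 4 (log2 -2.13, SE 0.55, edgeR adjusted p = 0.999). Cyp2c50, another P450, had 162, 367 and 192 CPM, against 672 and 380 CPM (log2 -1.31, SE 0.39, adjusted p = 0.999). The groups did not overlap for either gene, although mouse 5 came close to mouse 4 in Cyp2c50. The list of cytochrome P450 genes, which shares members with the pericentral one, had 26 of 38 below 0 and a median of -0.15. Its smallest p was that of Cyp2c54, which is not on the pericentral list, at 36.8, 52.5 and 55.8 CPM, against 193 and 174 CPM (log2 -1.88, SE 0.40, adjusted p = 0.484).

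Cyp2e1 itself overlapped, at 449, 2116 and 217 CPM in AAVrh.10Null mice 2, 5 and 8, against 3388 and 954 CPM in PBS mice 1 and 4. Mice 2 and 8 were low and mouse 5 lay between the PBS mice. The median of the pericentral list was -0.48 without PBS mouse 1, -0.55 without AAVrh.10Null mouse 8 and -1.38 without AAVrh.10Null mouse 5, which leaves mice 2 and 8, the mice with few barcodes ending in an undetermined base. Per barcode, the pericentral share averaged 1.95% ± 0.52 of UMIs in AAVrh.10Null mice and 2.47% ± 0.59 in PBS mice (SD, n = 3 and 2, exact two-sided permutation p = 0.6, adjusted p over 21 such tests 0.988). The smallest p that 3 against 2 mice allow here is 0.2.

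Of 30 tested periportal genes 23 were above 0 (median 0.23, or 0.02 without AAVrh.10Null mouse 8), with 2 higher in every AAVrh.10Null mouse, where 6.9% of all genes were. Pck1, the gluconeogenic carboxykinase, had 1229, 1784 and 1576 CPM in AAVrh.10Null mice, against 661 and 1385 CPM in PBS mice 1 and 4, which overlap. Of 68 nuclear-encoded oxidative phosphorylation genes 48 were above 0 with a median of 0.15. Responses to a virus or a vector gave no call. Of 14 tested type I interferon genes 7 were above and 7 below 0 (median -4.35e-05). MHC class I genes had 7 of 16 above 0 (median -0.08), and genes of the AAV receptor and of intracellular trafficking 11 of 22 (median 0.02). Immediate early genes had 14 of 16 below 0 (median -0.56), with mice 2 and 8 low: Jun stood at 346, 1574 and 402 CPM in AAVrh.10Null mice 2, 5 and 8, against 1390 and 464 CPM in PBS mice 1 and 4.

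Outside the lists, the genes with the smallest p that did not pass included Tsc22d1, a leucine zipper protein, with 29.4, 34.98 and 13.5 CPM in AAVrh.10Null mice, against 118 and 45.1 CPM in PBS mice 1 and 4 (log2 -2.30, SE 0.50, edgeR adjusted p = 0.484). Its log2 fold change was -2.65 without PBS mouse 4 and -1.07 without PBS mouse 1, each of which leaves 1 PBS mouse. Mphosph8, a reader of histone methylation, had 125, 105 and 65.4 CPM, against 29.2 and 32.2 CPM (log2 1.54, SE 0.36, adjusted p = 0.557), with no overlap. Aasdhppt, the phosphopantetheinyl transferase, was lower (log2 -1.77, adjusted p = 0.547), and Slc25a51 (1.18) and Smc6 (1.14) higher, each with an adjusted p of 0.547 or above.

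The second comparison asks what AAVrh.10mCherry did relative to PBS. mCherry alone passed (log2 8.06, SE 0.90, edgeR adjusted p = 0.000468, higher in 3 of 3 mice), again 0.0207% of the genes tested. The ratio of the pooled levels was 227, with a counting interval of 168 to 313. The ratio of the mouse means, 4993 and 9.98 CPM, was 500.2. With DESeq2 its log2 fold change was 8.62 and its adjusted p 0.0922. It passed without each vector mouse in turn and without mice 2 and 8. At an unadjusted p under 0.05, 255 genes (5.27%) differed. The PBS mice are the same as in the first comparison.

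Male-biased genes had the lowest medians among lists with at least 15 tested genes in AAVrh.10mCherry minus PBS. All 15 tested major urinary proteins were below 0, with a median of -1.33 beside 0.04 over all genes, and in 11 of them every AAVrh.10mCherry mouse was lower than both PBS mice, where 10.8% of all genes were. Of 29 male-biased growth hormone targets 28 were below 0 (median -1.03), with 16 apart in the same way; the lists share genes. None passed the test. Major urinary proteins are near-identical copies on chromosome 4, so reads of 1 member may be counted to another.

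Mup20, the male pheromone darcin, had 9834, 1206 and 3846 CPM in AAVrh.10mCherry mice 3, 6 and 9, against 10223 and 13590 CPM in PBS mice 1 and 4. Mup9 had 73.4, 18.7 and 94.4 CPM, against 200 and 161 CPM (log2 -1.64, SE 0.48, adjusted p = 0.843). Gstp1, a glutathione transferase with a close copy, had 1133, 420 and 1018 CPM, against 2157 and 2088 CPM (log2 -1.46, SE 0.41, adjusted p = 0.843). Cyp7b1, an oxysterol hydroxylase, had 168, 7.49 and 109 CPM, against 315 and 303 CPM (log2 -1.81, adjusted p = 0.843). In each, mouse 6 was the lowest and mice 3 and 9 also lay below both PBS mice.

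Mouse 6 decided much of the size. Without it the median of the major urinary proteins was -0.91, with 16 of 16 below 0, and that of the male-biased list -0.60, with 28 of 30 below 0. Selenbp2 and Elovl3 had 0 UMIs in the members of mouse 6, against 562 to 2465 CPM of Selenbp2 and 142 to 448 CPM of Elovl3 in the other 7 mice. Cyp2b9, a female-biased P450, stood at 318 CPM in mouse 6, against at most 1.41 CPM in the other 7. These genes were chosen after their values were seen. Y-linked Ddx3y gave 26 UMIs and Xist 0 in the members of mouse 6. Over its whole library Ddx3y gave 511 UMIs (101 CPM) and Xist 8 (1.58 CPM), where other libraries had at most 2 Xist UMIs. Lyz2 and Spp1 were also highest in this mouse, and their part in the result was not tested.

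Per barcode, major urinary proteins took 3.72%, 0.516% and 2.78% of UMIs in AAVrh.10mCherry mice 3, 6 and 9, against 4.89% and 4.23% in PBS mice 1 and 4, with no overlap. The means were 2.34% ± 1.65 and 4.56% ± 0.47 (SD, n = 3 and 2, exact two-sided permutation p = 0.2, the smallest this design allows, adjusted p = 0.933). In AAVrh.10Null mice 2, 5 and 8 the share was 6.10%, 4.24% and 3.51%.

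**Figure D5:**
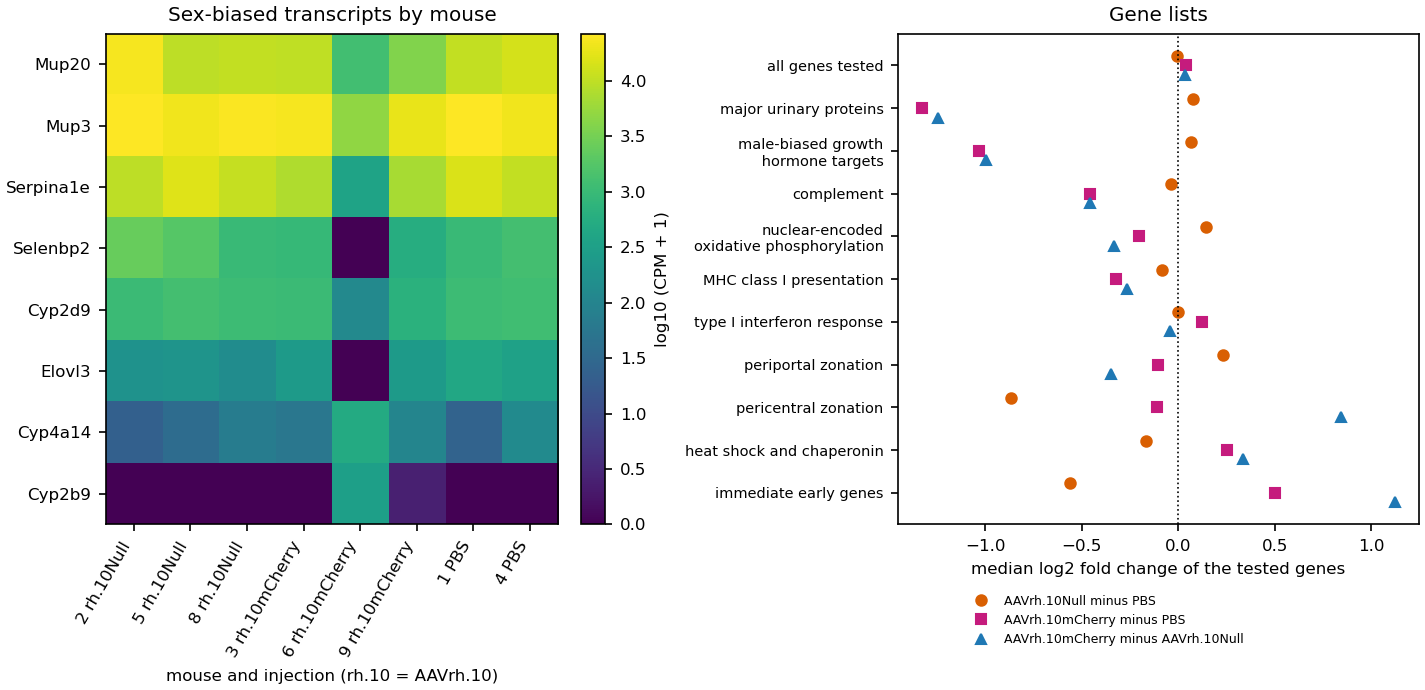
Left, sex-biased transcripts in members by mouse as log10 of CPM plus 1, with Mup20 to Elovl3 male-biased and Cyp4a14 and Cyp2b9 female-biased. Right, median log2 fold change of the tested genes of each list in the 3 comparisons (points), with all 4838 genes on top: the major urinary proteins lie at -1.33 in AAVrh.10mCherry minus PBS and at 0.08 in AAVrh.10Null minus PBS.

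Secreted and immune lists lay below 0 to a smaller extent in AAVrh.10mCherry minus PBS. Of 22 complement genes 20 were below 0 (median -0.46), with every AAVrh.10mCherry mouse lower in 11, where 10.8% of all genes were, a share that also stands against the counts of this kind below. C1ra, a protease that starts the classical pathway, had the smallest p of them (log2 -0.80, SE 0.32, edgeR adjusted p = 0.843). Coagulation genes had 20 of 23 below 0 (median -0.31), among them F2, prothrombin (log2 -0.55, adjusted p = 0.843). MHC class I genes had 16 of 16 below 0 (median -0.32), 7 of them apart, and nuclear-encoded oxidative phosphorylation 56 of 68 (median -0.20), 15 apart. With library sizes alone in place of TMM scaling, the median over all genes moved to 0.22, and the medians of these 4 lists were -0.30, -0.15, -0.17 and -0.04. Without PBS mouse 1 the medians of the coagulation and oxidative phosphorylation lists were -0.15 and -0.08.

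Stress-linked lists were split. Unfolded protein response genes had 18 of 25 below 0 (median -0.20), and metallothionein and NRF2 antioxidant genes 15 of 24 (median -0.08). The heat shock and immediate early lists lay above 0. Heat shock and chaperonin genes had 23 of 28 above 0 (median 0.25, or 0.09 without PBS mouse 4 and 0.52 without PBS mouse 1), with 2 apart, where 11.5% of all genes were, and with Dnaja1, a co-chaperone, at 170, 251 and 254 CPM in AAVrh.10mCherry mice 3, 6 and 9, against 122 and 64.4 CPM in PBS mice 1 and 4 (log2 0.97, adjusted p = 0.843). Immediate early genes had 13 of 16 above 0 (median 0.50), and the median was 0.06 without PBS mouse 4 and 1.91 without PBS mouse 1. Type I interferon genes had 8 of 14 above 0 (median 0.12), and without PBS mouse 1 the median was -0.63. Genes of the AAV receptor and of trafficking had 13 of 22 above 0 (median 0.11).

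Outside the lists, Gm45836 had 136, 120 and 32.4 CPM in AAVrh.10mCherry mice, against 4.64 and 12.9 CPM in PBS mice 1 and 4, with no overlap (log2 3.80, SE 0.68, edgeR adjusted p = 0.0943). It passed without AAVrh.10mCherry mouse 9 (adjusted p = 0.00297). Gm37376 (chr19:5801941-5802393), which lies inside Malat1 on the opposite strand, had 65.5, 93.7 and 107 CPM, against 20.9 and 38.7 CPM (log2 1.71, SE 0.40, adjusted p = 0.843); reads of these genes may not be told apart. Camk2n1, an inhibitor of CaM kinase II, was above both PBS mice in every AAVrh.10mCherry mouse (log2 1.29, adjusted p = 0.843). Elovl1, an elongase of very long fatty acids from the fatty acid synthesis list (14 of 20 below 0, median -0.32), was below them (log2 -1.35, adjusted p = 0.843).

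The third comparison sets the vectors against each other. By edgeR's test mCherry was higher (log2 10.37, SE 0.98, adjusted p = 2.35e-05) and Igkv3-12 lower (log2 -9.63, SE 0.70, adjusted p = 1.33e-05) in AAVrh.10mCherry minus AAVrh.10Null, in 3 of 3 mice each. These 2 genes are 0.0413% of those tested, and 365 genes (7.54%) had an unadjusted p under 0.05. Igkv3-12 was at least 83.8-fold lower against 3 UMIs over the AAVrh.10mCherry members. mCherry had 2 UMIs in AAVrh.10Null members, a pooled ratio of 1504 with a counting interval of 416 to 12418. The ratio of the mouse means, 4993 and 11.7 CPM, was 428, where the pooled AAVrh.10Null level rests mostly on mouse 8, which had 0 UMIs. With limma-voom mCherry did not pass (log2 9.90, adjusted p = 0.148). The same vector mice enter the comparisons with PBS.

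Pericentral genes had 21 of 25 above 0 here (median 0.84). Only 2 of the 25, Cyp2a5 and Cyp2c50, were apart and higher, which is close to the 7.17% of all genes that were. Cyp2a5 had 52.4, 161 and 110 CPM in AAVrh.10mCherry mice 3, 6 and 9, against 29.4, 17.5 and 11.5 CPM in AAVrh.10Null mice 2, 5 and 8, with no overlap (log2 2.50, SE 0.52, edgeR adjusted p = 0.203). Cyp2c50 had 456, 663 and 868 CPM, against 162, 367 and 192 CPM, also with no overlap (log2 1.44, SE 0.36, adjusted p = 0.379). Without AAVrh.10Null mouse 8 the list's median was 0.48. Cytochrome P450 genes as a list had 20 of 38 below 0 (median -0.02). Among them Cyp2c54, which is not on the pericentral list, had 142, 262 and 276 CPM, against 36.8, 52.5 and 55.8 CPM (log2 2.001, SE 0.37, adjusted p = 0.0941). Cyp2a5 and Cyp2c54 passed without AAVrh.10mCherry mouse 3 (adjusted p = 0.0129 each) and without a filter on low counts, and Cyp2c54 also with DESeq2 (adjusted p = 0.0313). Periportal genes had 25 of 30 below 0 (median -0.35).

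Major urinary proteins had 15 of 15 below 0 (median -1.25, or -0.82 without mouse 6), of which 4 were apart, where 5.25% of all genes were. Mup9 had 73.4, 18.7 and 94.4 CPM in AAVrh.10mCherry mice, against 419, 350 and 137 CPM in AAVrh.10Null mice (log2 -2.21, SE 0.47, adjusted p = 0.214). Nuclear-encoded oxidative phosphorylation genes had 64 of 68 below 0 (median -0.33, 15 apart), though their median was 0.02 in barcodes with at least 750 genes. Heat shock genes had 25 of 28 above 0 (median 0.33), 6 of them apart, where 7.17% of all genes were, and immediate early genes 14 of 16 above 0 (median 1.12, 1 apart). Ces2a, a carboxylesterase, had 307, 292 and 345 CPM, against 545, 560 and 829 CPM (log2 -1.20, SE 0.30, adjusted p = 0.379), and Gas2 was also lower with no overlap (log2 -1.39, adjusted p = 0.257).

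The nuclear and ribosomal shares overlapped between groups in every contrast. Per barcode, nuclear RNAs took 2.71% ± 0.96 of UMIs in AAVrh.10Null, 2.77% ± 0.71 in AAVrh.10mCherry and 1.86% ± 0.24 in PBS mice, and ribosomal protein transcripts 2.11% ± 0.11, 2.41% ± 0.86 and 2.35% ± 0.39 (SD, n = 3, 3 and 2). Exact two-sided permutation tests gave p = 0.4 to 1 for these 6 contrasts.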

How the data were processed

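Single-cell transcript counts of 9 mouse livers were used, 1 library per mouse, grouped by the injection named in the labels. The labels' protocols give Drop-seq capture and paired reads of 101 cycles from a Hiseq 2500. A readme among the deposited files names bcl2fastq 2.19 for demultiplexing, and the submitters' processing notes name Seurat and mm10. No aligner, counting tool or annotation is stated in either. The values deposited are counts of UMIs per gene and barcode, whole numbers without scaling. A feature that a table does not list was read as 0. Doublets were not called.

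UMIs of members were summed per mouse, and mice with at least 20 members entered 1 fit in R 4.3.3 with edgeR 4.0.16 (TMM, filterByExpr, quasi-likelihood test, group as the only term, Benjamini-Hochberg over 4838 genes, threshold 0.05). Member sums held 57180 to 2153937 UMIs in the 8 mice used, and the biological coefficient of variation was 0.262. Each SE of an edgeR log2 fold change is its absolute value over the square root of the F statistic. For Igkv3-12, with 0 UMIs in PBS and AAVrh.10mCherry members, the log2 fold change and SE do not measure a size. The bounds given stand in their place. Levels are CPM without TMM scaling. Alb and the 12 genes of the rule were left out of calls. Single values per mouse were compared by exact permutation (Python 3.11.15, scipy 1.17.1). limma 3.58.1 and DESeq2 1.42.0 were alternatives. Scripts were tested on simulated data. Replicates are separate mice, and their numbers pair none across groups.

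The members, the 35 gene lists and the tests were chosen with earlier results of these data known. Named genes followed a rule. It took the 20 highest by mean CPM and the 15 highest by rank of variance over mean. It took the 10 per direction with the largest ratio to other hepatocyte barcodes. Passing genes were taken, or otherwise the 3 with the smallest p per direction and contrast, and up to 2 per list. Others (Jun, Cyp2e1 and Mup20 by group, the sex-biased genes of mouse 6, Lyz2, Igkc) were chosen after their values were seen. Gene positions are from GENCODE on GRCm38, the build that the labels call mm10.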

Additional observations from a re-analysis of the deposited data

How the results depend on the processing

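The number of passing genes was 1 in AAVrh.10Null minus PBS, 1 in AAVrh.10mCherry minus PBS and 2 in AAVrh.10mCherry minus AAVrh.10Null. With DESeq2 it was 0 in AAVrh.10mCherry minus PBS and 4 in AAVrh.10mCherry minus AAVrh.10Null, and with limma-voom 0 in AAVrh.10Null minus PBS and 1 in AAVrh.10mCherry minus AAVrh.10Null. Without a filter on low counts it was 5, 11 and 30 in the 3 contrasts in the order above, and without the exclusion genes 2, 2 and 5. Without mitochondrial genes and mCherry it was 0 in AAVrh.10mCherry minus PBS and 1 in AAVrh.10mCherry minus AAVrh.10Null, where mCherry is taken out by construction. With at least 750 genes it was 2 in AAVrh.10mCherry minus PBS. Leaving out 1 vector mouse at a time gave 0 to 1, 1 to 2 and 2 to 4. Leaving out a PBS mouse leaves 1 in that group, so no count is given for it. No member set with at least 1500 genes had enough mice for a contrast, and at least 50 Alb UMIs allowed AAVrh.10mCherry minus PBS alone.

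No test of a single value could pass 0.05 with these numbers of mice. The periportal shares below leave out Alb. Small differences changed sign. For AAVrh.10Null minus PBS, the immediate early share differed by -0.132 with at most 10% mitochondrial UMIs and -0.0226 as a share of the sum, against 0.00434; the periportal share by 0.0496 with at most 10% mitochondrial UMIs, against -0.138; and the major urinary protein share by -0.885 with at least 750 genes, against 0.0616. For AAVrh.10mCherry minus AAVrh.10Null, the nuclear RNA share differed by -0.163 when thinned and -1.42 with at least 750 genes, against 0.0659, and the periportal share by 0.0447 with at least 750 genes, against -0.347. For AAVrh.10mCherry minus PBS, the ribosomal share differed by -0.197 with at least 750 genes, against 0.0618. The cause was not tested.

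Leaving out 1 mouse at a time, differences of AAVrh.10Null minus PBS ran from -0.125 to 0.134 (immediate early share), -0.681 to 0.616 (major urinary protein share), -0.367 to 0.0688 (periportal share), -0.518 to 0.0335 (ribosomal share) and -0.51 to 0.0467 (log2 pericentral over periportal). Those of AAVrh.10mCherry minus AAVrh.10Null ran from -0.12 to 0.43 (log2 pericentral over periportal), -0.357 to 0.590 (nuclear RNA share), -0.223 to 0.313 (pericentral share) and -0.175 to 0.650 (ribosomal share). Those of AAVrh.10mCherry minus PBS ran from -0.26 to 0.11 (log2 pericentral over periportal) and -0.417 to 0.408 (ribosomal share). No paired analysis was possible because the labels number the mice 1 to 9 and no number is shared between groups.

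The PBS group had 2 mice, and 21 members in mouse 5 gave 57180 UMIs, which limits genes of low level most. List medians under these settings, chosen after the data were seen, kept their sign for 15 of the 19 medians followed.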
